A study of Homo sapiens with 12 samples.

Results

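The contractile apparatus of a myofibroblast was followed through 10 genes listed by symbol: ACTA2, TAGLN, CNN1, CNN2, MYL9, MYLK, TPM1, TPM2, CALD1 and ACTN1. All 10 were found among the 38716 symbols of the tables, of which 16451 had at least 1 read in a coding sequence (CDS), and all 10 passed the filter on low counts in every comparison. The cells were IMR90, a primary line of human fetal lung fibroblasts, either proliferating (Pro) or passaged to replicative exhaustion and then senescent (Sen). No transgene or drug is named in the labels for either state, both states grew in the same medium with serum and were harvested with cycloheximide, and more than one isolate of the line was used, with no record of the isolate behind each lysate. The names of the RNA-seq tables of proliferating cells carry letters resembling DMSO, a solvent that no label mentions. From 3 lysates of each state both a Ribo-seq library of ribosome-protected fragments (RPF) and an RNA-seq library of poly(A)-enriched RNA had been made, 12 libraries in all. The question for these genes was whether mRNA, footprints and the ratio of footprints to mRNA differed between the states.

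A myofibroblast is a fibroblast that has assembled actin bundles, or stress fibres, able to pull on the matrix around it, and smooth muscle actin in those bundles is its usual mark. Myosin pulls on actin once its regulatory light chain has been phosphorylated by a kinase that calcium and calmodulin switch on, while tropomyosins, caldesmon and calponins lie along the filament and set how myosin and other proteins reach it. Many of these genes share a short promoter element, the CArG box, which is bound by serum response factor (SRF) together with the coactivators myocardin and the myocardin-related factors.

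Because most of the 10 genes moved together, their promoters were read for that element. RefSeq windows of 300 bases, from 250 bases before to 50 bases after a start site on GRCh38.p14, were matched for 8 of the 10 genes in 16 windows, and those of TAGLN and MYL9 were not. Both strands were searched for the CArG box, which is CC and GG around a run of A and T, for a CArG-like box in which exactly 1 base of that run is G or C, and for the letters CATTCC, which TEAD factors bind. The boxes that were found are given in capitals with their flanks, on the strand of the gene, to show which of the genes carry the element near a start site.

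CNN2, CArG box, chr19:1026509-1026538, plus strand: cgcctccaggCCTTATAAGGacatttgcgc
MYLK, CArG box, chr3:123620623-123620652, minus strand: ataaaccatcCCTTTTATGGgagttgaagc
ACTN1, CArG box, chr14:68977718-68977747, minus strand: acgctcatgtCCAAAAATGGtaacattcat
ACTA2, CArG-like box, chr10:88952875-88952904, minus strand: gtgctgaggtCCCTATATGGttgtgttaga
ACTA2, CArG-like box, chr10:88952825-88952854, minus strand: tgtctttgctCCTTGTTTGGgaagcaagtg
CALD1, CArG-like box, chr7:134711463-134711492, plus strand: ccagaggtccCCTAAAGAGGaatacattct

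The CArG box began 89 bases before the start site in CNN2, 94 bases before it in MYLK and 171 bases before it in ACTN1. The 2 CArG-like boxes of ACTA2 began 121 and 71 bases before its start site, and the one of CALD1 lay 26 bases before 1 of its start sites. A CArG box was present in 3 of the 16 windows and in 1.29% of all 35116 promoter windows of the table, and a CArG-like box in 2 of the 16 and in 6.94% of all. The related lists followed below held the CArG box too. It was in 2 of 12 windows of smooth muscle genes and 7 of 36 of focal adhesion and stress fibre genes. Non-muscle relatives had it in 2 of 22 windows and regulators of contraction in 2 of 32. CATTCC was found on either strand in 5 of the 16 windows, those of ACTA2, MYLK, CALD1 and ACTN1, and in 14.0% of all. These matches describe letters in a window and do not show binding. Of the 3 genes with a full CArG box here, ACTN1 rose in senescent cells, MYLK was not called and CNN2 fell as mRNA, by the tests that follow.

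Reads in mRNA regions numbered 7902427 to 14144455 per RNA-seq library, and CDS reads numbered 54421 to 1718521 per Ribo-seq library. Lysates Pro 1 and Sen 2 were the shallow ones in Ribo-seq, with 54421 and 54708 CDS reads, and only 34.4% and 15.0% of their assigned reads were in a CDS. For the contractile genes this meant 13 to 310 footprints per gene in Sen 2 and 14 to 169 in Pro 1. Fibroblast markers were high in every library, with a summed level of 29078 to 37067 counts per 1000000 library reads (CPM) in RNA-seq and none of the 10 at 0. Of 7 skeletal muscle markers MYOD1, MYOG and TNNT3 had no read in any library, while ACTA1 was at 12.9 to 18.1 CPM in RNA-seq and had Ribo-seq CDS reads at 193 to 219 CPM in proliferating and 250.3 to 341 CPM in senescent cells. The sum over the 7, which include DES, was 54.3 to 74.2 CPM in RNA-seq and 386 to 561 CPM in Ribo-seq, and its part in the results was not tested. In the same libraries the 6 epithelial markers together reached at most 2.75 CPM in RNA-seq and 3.43 CPM in Ribo-seq. The 6 markers of vascular smooth muscle and pericytes (MYH11, RGS5, NOTCH3, MCAM, CSPG4 and DES), all of them detected in RNA-seq, summed to 326 to 345 CPM in proliferating and 432 to 506 CPM in senescent cells. MCAM made up most of that difference (138 to 147 against 288 to 311 CPM). NOTCH3 (48.05 to 54.51 against 54.84 to 77.17 CPM) and RGS5 (3.05 to 3.44 against 10.47 to 11.16 CPM) also rose without overlap. MYH11 was lower in senescent cells, and CSPG4 and DES overlapped between the states. The 6 markers summed to 585 to 597 CPM in proliferating and 603 to 760 CPM in senescent Ribo-seq libraries. RGS5 was at 0 there in Sen 2 and Sen 3, and the part of the 6 markers in the results was not tested. Endothelial and immune marker sums were 89.5 to 102 against 56.5 to 64.8 CPM and 30.9 to 33.9 against 19.8 to 22.1 CPM in senescent and proliferating RNA-seq libraries. Marker sums are per library total and single genes are on TMM-scaled sizes, so the values of a gene and its list are not on 1 scale. Each of these sums was nearly all 1 gene, TEK (92.7 to 105 against 53.8 to 61.4 CPM) and CD68 (31.1 to 34.1 against 18.9 to 21.0 CPM), with CDH5 and CD3E at 0 in every RNA-seq library. Their part in the results was not tested either.

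Senescent cells carried more contractile mRNA and more footprints on it. Of the 10 genes, 8 rose as mRNA (CALD1, TPM1, TAGLN, MYL9, ACTA2, TPM2, CNN1 and ACTN1), CNN2 fell and MYLK was not called, by edgeR's quasi-likelihood test at a Benjamini-Hochberg adjusted p under 0.15. Change was common in this comparison, since 73.6% of the 12787 genes tested were called, 36.6% higher and 37% lower. The same 8 genes rose as RPF, where 54.4% of 7521 genes were called, 27.5% higher and 26.9% lower, and none of the 10 fell there, by edgeR, by DESeq2 or at an unadjusted p under 0.05. Without both shallow lysates the count that rose was 8 in each layer, and without Sen 3 it was 8 in mRNA and 6 in RPF. The median log2 fold change of the 10 genes was 0.41 in mRNA and 0.64 in RPF, against -0.006 and -0.003 over all genes tested. With library totals in place of the trimmed mean of M-values (TMM) scaling, the median of all genes moved to -0.11 and -0.14. Bulk libraries cannot tell more cells of a kind from more RNA per cell.

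Taken as 1 pool, the 10 genes held 1.15% to 1.25% of the RNA-seq reads of proliferating cells and 1.59% to 1.62% of those of senescent cells. Their part of the Ribo-seq CDS reads was 1.28%, 1.42% and 1.40% in the proliferating lysates 1 to 3 and 2.16%, 2.002% and 2.48% in the senescent ones. The widest Wilson 95% intervals, which cover counting error only, were 1.19% to 1.38% in Pro 1 and 1.89% to 2.12% in Sen 2. Every senescent library thus lay above every proliferating one in both assays, and the shallow libraries lay on the side of their own state.

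**Figure D1:**
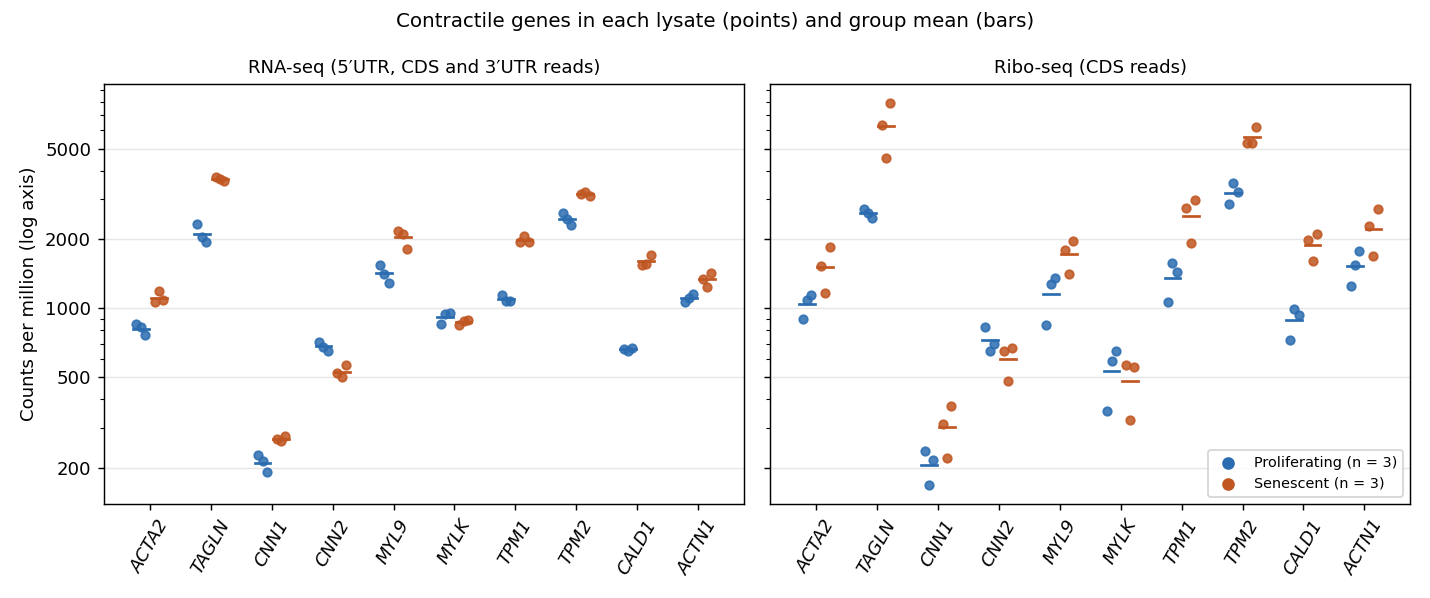
Level of each contractile gene in every lysate, in CPM on a log axis, for RNA-seq (left) and Ribo-seq CDS reads (right). Points are lysates, in replicate order from left to right within a state, bars are group means, and blue and orange mark proliferating and senescent cells (n = 3 each). In RNA-seq the states separate for all genes but MYLK, and in Ribo-seq they overlap for CNN1, CNN2, MYLK and ACTN1.

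As mRNA, the replicates of the states did not overlap for 9 of the 10 genes, MYLK being the exception, and 67.8% of all genes tested were separated in this way, 33.5% higher and 34.2% lower. As RPF they did not overlap for 6 of the 10, all of them higher in senescent cells, against 32.5% of all genes tested in either direction and 16.8% in that direction (15.7% in the other). The 4 that overlapped were CNN1, CNN2, MYLK and ACTN1.

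Smooth muscle actin, ACTA2 (chr10:90694831-90751096 on the minus strand, GRCh37), is the filament protein by which myofibroblasts are usually recognised. Its mRNA stood at 856, 824 and 760 CPM in proliferating lysates 1, 2 and 3 and at 1067, 1186 and 1086 CPM in senescent lysates 1, 2 and 3, the order kept for every gene. All senescent lysates were above all proliferating ones, and the log2 fold change was 0.45 (SE 0.07, adjusted p = 1.59e-05), a 1.37-fold difference. ACTA2 footprints were at 892, 1083 and 1147 CPM in proliferating cells and at 1537, 1160 and 1856 CPM in senescent cells. The lowest senescent value, that of the shallow Sen 2 with 68 reads, lay just above the highest proliferating one, and the log2 fold change in RPF was 0.55 (SE 0.17, adjusted p = 0.00670). That call was lost without Sen 3 (0.39, adjusted p = 0.208).

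ACTN1 (chr14:69340845-69446157, minus strand), the alpha-actinin that ties actin filaments into bundles and to adhesions, had the smallest mRNA change of the genes that rose. Its mRNA was at 1060, 1108 and 1156 CPM in proliferating and at 1347, 1242 and 1425 CPM in senescent lysates, without overlap. The log2 fold change was 0.27 (SE 0.07, adjusted p = 0.00297). Footprints on ACTN1 were at 1246, 1545 and 1781 CPM in proliferating cells and at 2287, 1689 and 2709 CPM in senescent cells, so that Sen 2 fell below Pro 3. The RPF log2 fold change of 0.55 (SE 0.18, adjusted p = 0.00952) passed the threshold, but without Sen 3 it was 0.39 and not called (adjusted p = 0.218).

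TAGLN (chr11:117070086-117078180, plus strand) encodes transgelin, or SM22, a small calponin-family protein that binds actin filaments. TAGLN mRNA was at 2337, 2055 and 1944 CPM in proliferating cells and at 3753, 3695 and 3611 CPM in senescent cells. The 3 senescent values lay close together and far above the others, with a log2 fold change of 0.80 (SE 0.08, adjusted p = 9.29e-09). Its footprints went from 2728, 2613 and 2471 CPM to 6322, 4538 and 7939 CPM. This was the highest RPF fold change of the 10 genes, 1.29 on the log2 scale (SE 0.19, adjusted p = 4.52e-08) or 2.45-fold, and the senescent values spread widely around it, with the shallow Sen 2 lowest. In proliferating cells TAGLN ranked 30th of 16451 symbols by mean RNA-seq CPM and 28th by mean RPF CPM, and in senescent cells 14th and 10th.

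The calponins CNN1 and CNN2 bind actin and can hold back myosin. CNN1 (chr19:11649582-11661138, plus strand), the form typical of smooth muscle, was the least abundant of the 10 as mRNA, at 226, 213 and 191 CPM in proliferating and 267, 261 and 274 CPM in senescent lysates. It rose with a log2 fold change of 0.35 (SE 0.07, adjusted p = 0.000288). Its footprints were at 236, 169 and 215 CPM in proliferating and 311, 222 and 374 CPM in senescent cells, where Sen 2 lay between the proliferating values on 13 reads. The RPF log2 fold change was 0.72 (SE 0.17, adjusted p = 0.000266).

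CNN2 (chr19:1026585-1039067, plus strand), the calponin found in many cell types outside muscle, went the other way as mRNA. It was at 711, 678 and 651 CPM in proliferating and 519, 499 and 565 CPM in senescent lysates, and fell by 0.37 on the log2 scale (SE 0.07, adjusted p = 0.000152). CNN2 footprints were at 825, 650 and 698 CPM in proliferating and 647, 478 and 670 CPM in senescent cells and overlapped. The RPF fold change of -0.14 (SE 0.16, 95% interval -0.46 to 0.18) was not called, which leaves room for a fall as large as that of the mRNA. As a result the ratio of CNN1 to CNN2 reads went from 0.309 ± 0.014 to 0.508 ± 0.020 in RNA-seq and from 0.285 ± 0.025 to 0.501 ± 0.050 in Ribo-seq (SD, n = 3), with no overlap in either. Of the 10 genes CNN2 shared most at the length of a footprint, since 18.4% of its 30-base CDS windows also occur in transcripts of other genes, the pseudogenes CNN2P9 and CNN2P1 foremost, against 1.17% of 49-base windows, where MYLK shared most (2.37%).

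The tropomyosins are coiled-coil dimers that lie along actin and decide which proteins may bind it. TPM1 (chr15:63334819-63364114, plus strand) mRNA was at 1137, 1073 and 1074 CPM in proliferating and 1940, 2067 and 1953 CPM in senescent cells, a log2 fold change of 0.86 (SE 0.07, adjusted p = 6.93e-10). TPM1 footprints were at 1061, 1576 and 1439 CPM in proliferating and 2740, 1928 and 2966 CPM in senescent cells. They rose by a log2 fold change of 0.89 (SE 0.18, adjusted p = 3.13e-05), nearly that of the mRNA, and no senescent value reached down to the proliferating ones.

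TPM2 (chr9:35681989-35690053, minus strand) mRNA was at 2609, 2460 and 2321 CPM in proliferating and 3163, 3218 and 3114 CPM in senescent cells. Its log2 fold change in mRNA was 0.36 (SE 0.07, adjusted p = 0.000179), less than the value for TPM1. TPM2 footprints went from 2846, 3549 and 3216 CPM to 5282, 5288 and 6207 CPM, and the shallow Sen 2 agreed closely with Sen 1. Their log2 fold change was 0.79 (SE 0.18, adjusted p = 0.000284). The ratio of TPM1 to TPM2 reads therefore went from 0.445 ± 0.015 to 0.628 ± 0.015 in RNA-seq without overlap. In Ribo-seq the ratio was 0.421 ± 0.042 in proliferating and 0.454 ± 0.080 in senescent cells (SD, n = 3), and the lysates overlapped. Both genes make several isoforms by splicing, which counts per gene do not separate, and they share 9 of their 30-base CDS windows with each other.

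CALD1 (chr7:134429003-134655480, plus strand) encodes caldesmon, which binds actin, tropomyosin and calmodulin and holds back myosin's motor. It had the highest mRNA fold change of the 10 genes. Its mRNA was at 661, 651 and 667.4 CPM in proliferating and 1542, 1555 and 1715 CPM in senescent cells, a log2 fold change of 1.28 (SE 0.07, adjusted p = 1.34e-12) or 2.43-fold, and 95.1% of all genes tested had a lower value. Among all symbols, CALD1 went from rank 183 to rank 56 by mean RNA-seq CPM. Its footprints were at 724, 997 and 936 CPM in proliferating and 1981, 1603 and 2113 CPM in senescent cells, with a log2 fold change of 1.07 (SE 0.17, adjusted p = 3.37e-07) or 2.11-fold. No 30-base CDS window of CALD1 was shared with another gene.

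MYL9 (chr20:35169900-35179850, plus strand) encodes the regulatory light chain of smooth muscle and non-muscle myosin, the subunit that is phosphorylated when the filament contracts. MYL9 mRNA was at 1549, 1414 and 1294 CPM in proliferating and 2188, 2115 and 1817 CPM in senescent cells, a log2 fold change of 0.52 (SE 0.08, adjusted p = 1.17e-05). Its footprints were at 842, 1275 and 1358 CPM in proliferating and 1804, 1416 and 1973 CPM in senescent cells. Both changes were of the same size, since the RPF log2 fold change was 0.54 (SE 0.17, adjusted p = 0.00855).

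MYLK (chr3:123328896-123603179, minus strand) encodes the kinase that phosphorylates this light chain. MYLK mRNA was at 855.1, 947 and 952 CPM in proliferating and 843, 876 and 885 CPM in senescent cells. The groups overlapped, and the log2 fold change of -0.08 (95% interval -0.22 to 0.06, adjusted p = 0.333) was not called. It passed the threshold as a fall under 3 other settings, with library totals (-0.19), without both shallow lysates (-0.13) and with CDS reads alone (-0.15). MYLK footprints were at 354, 586 and 650 CPM in proliferating and 564, 324 and 551 CPM in senescent cells, with the 2 shallow libraries lowest in their groups. The RPF log2 fold change was -0.15 (95% interval -0.47 to 0.18, adjusted p = 0.490). In that comparison MYLK was called lower with library totals, with the stricter count filter and without Pro 1 (-0.28), and turned to 0.014 without Pro 3.
Reads of MYL9 per read of MYLK went from 1.55 ± 0.23 to 2.35 ± 0.27 in RNA-seq and from 2.21 ± 0.15 to 3.72 ± 0.60 in Ribo-seq (SD, n = 3), without overlap. Of the 30-base CDS windows of MYLK, 6.01% also occur in other genes, mainly the pseudogene MYLKP1.

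**Figure D2:**
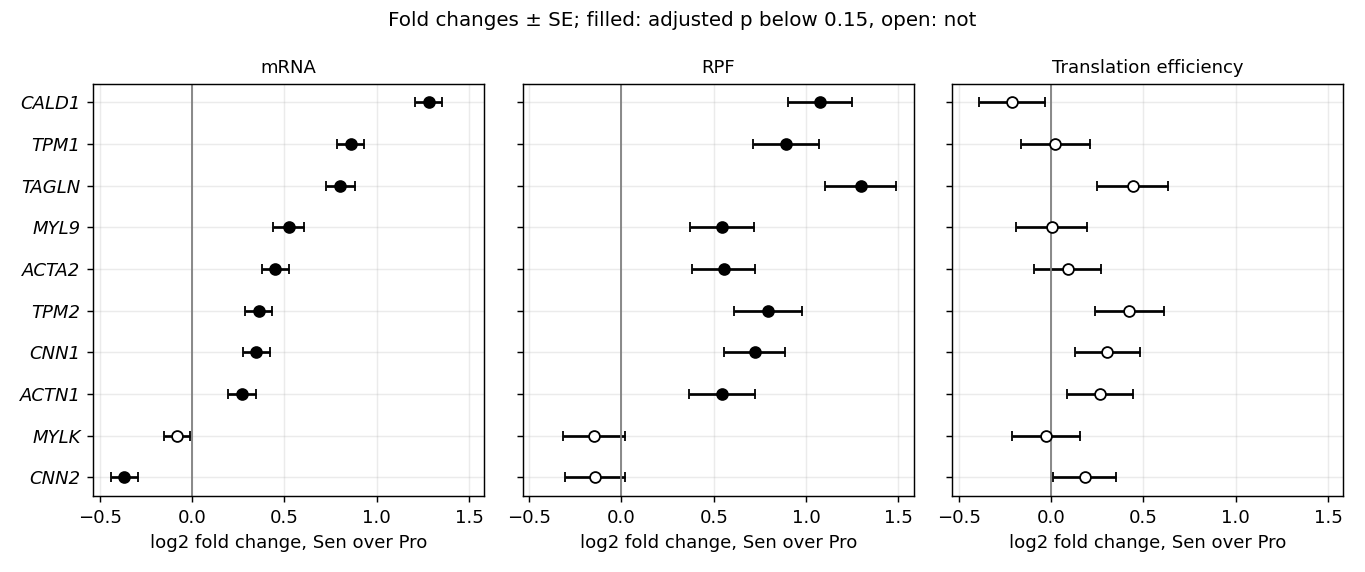
Log2 fold change of senescent over proliferating cells for the 10 contractile genes in mRNA, RPF and translation efficiency, ordered by the mRNA value. Points are estimates with their standard error, filled where the adjusted p was below 0.15. In mRNA and RPF 8 genes are filled to the right of 0, CNN2 is filled to the left in mRNA alone, and no point is filled in translation efficiency.

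Translation efficiency (TE), the footprints of a lysate relative to its own mRNA, was not called changed for any of the 10 genes. The test was the interaction of library type with state over 12 libraries with the lysate as a block, in edgeR, and it called 9.37% of 7473 genes, 4.88% higher and 4.48% lower. DESeq2 called none of the 10 either. The share of all genes that DESeq2 called in TE was not computed, so this cannot back the edgeR result. The same limit holds for the DESeq2 results in TE of the lists below. By edgeR 2 of the 10, TAGLN and TPM2, had an unadjusted p under 0.05. Fold changes in TE ran from -0.21 for CALD1 to 0.44 for TAGLN, with standard errors of 0.17 to 0.19, and their median was 0.14 against -0.01 over all genes tested. With such errors, differences of about the size seen for TAGLN lie at the limit of what could be called.

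TAGLN had log2 TE values of 0.23, 0.35 and 0.35 in proliferating and of 0.75, 0.30 and 1.14 in senescent lysates. The shallow Sen 2 lay among the proliferating values and the other senescent lysates well above them. The TE fold change was 0.44 (SE 0.19, 95% interval 0.06 to 0.82, adjusted p = 0.195). Without Sen 2 it was 0.66 and called (adjusted p = 0.0243), and without both shallow lysates it was 0.60 (adjusted p = 0.0123). Without Sen 3 it was 0.24 (adjusted p = 0.761).

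TPM2 had log2 TE values of 0.13, 0.53 and 0.47 in proliferating and 0.74, 0.72 and 0.995 in senescent lysates. It was the only one of the 10 whose states did not overlap in TE, where 16.2% of all genes were so separated, 7.65% higher and 8.59% lower. Its TE fold change was 0.42 (SE 0.19, adjusted p = 0.199), and it was 0.49 and called without Sen 2 (adjusted p = 0.103). Without Pro 1 it was 0.28 (adjusted p = 0.326) and without Sen 3 it was 0.34 (adjusted p = 0.638).

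For the other 8 genes the states overlapped in TE. CALD1 had log2 TE values of 0.15, 0.62 and 0.49 in proliferating and 0.36, 0.05 and 0.30 in senescent cells, so that its change of -0.21 (SE 0.18, adjusted p = 0.554) lay within the spread of the lysates. CNN1, ACTN1 and CNN2 had values of 0.30, 0.26 and 0.18 (adjusted p from 0.358 to 0.601). With a lysate left out, CNN1 ran from 0.10 without Pro 2 to 0.53 without Pro 3, ACTN1 from 0.16 without Pro 1 to 0.38 without Sen 2, and CNN2 from 0.08 without Pro 2 to 0.26 without Sen 2. The value of CALD1 ran from -0.33 without Pro 1 to -0.11 without Pro 2. ACTA2, TPM1, MYL9 and MYLK lay between -0.03 and 0.09 (adjusted p from 0.829 to 0.995), and the sign of each of these 4 turned under at least 1 other setting. Pro 1 had the lowest TE of the proliferating lysates for every gene but the calponins, among them MYL9 (-0.87), MYLK (-1.24) and TPM1 (-0.09). Sen 2 had the lowest of the senescent lysates for all 10 genes.

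Levels of different genes were compared per kilobase of coding length, with the canonical CDS of the GENCODE annotation on GRCh37, which may not be that of the authors. In footprints, TAGLN was first in both states, at 4314 ± 207 CPM per kb in proliferating and 10388 ± 2829 in senescent cells (SD, n = 3). TPM2 followed at 3761 ± 411 and 6564 ± 625, and MYL9 came next at 2245 ± 537 and 3352 ± 561 CPM per kb. In proliferating cells the ranges of TAGLN and TPM2 overlapped (4097 to 4510 and 3343 to 4166 CPM per kb), and in senescent cells the range of TAGLN (7511 to 13167) lay above that of TPM2 (6200 to 7286).

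TPM1 and then ACTA2 came after MYL9 in both states, TPM1 at 1593 ± 317 and 2987 ± 641 and ACTA2 at 918 ± 120 and 1344 ± 306 CPM per kb. In proliferating cells MYL9 and TPM1 overlapped (1632 to 2633 and 1238 to 1850), as did ACTA2 and CNN2 (784 to 1014 and 700 to 890). In senescent cells MYL9 and TPM1 overlapped (2733 to 3826 and 2262 to 3482), as did ACTN1 and CALD1 (616 to 988 and 674 to 889). CNN2, at 781 ± 98 CPM per kb in proliferating cells, had the next mean there but stood at 645 ± 113 in senescent cells. ACTN1 and CALD1 had a higher mean in senescent cells, with ranges that overlapped that of CNN2 (515 to 722). CNN1 and MYLK were the last 2 in both states, MYLK at 92.3 ± 27.2 and 83.5 ± 23.5 CPM per kb. Where the union of all annotated coding exons was used as the length, TPM1 had 812 and 1523 CPM per kb, below the value of ACTA2 in proliferating cells and above it in senescent cells.

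**Figure D3:**
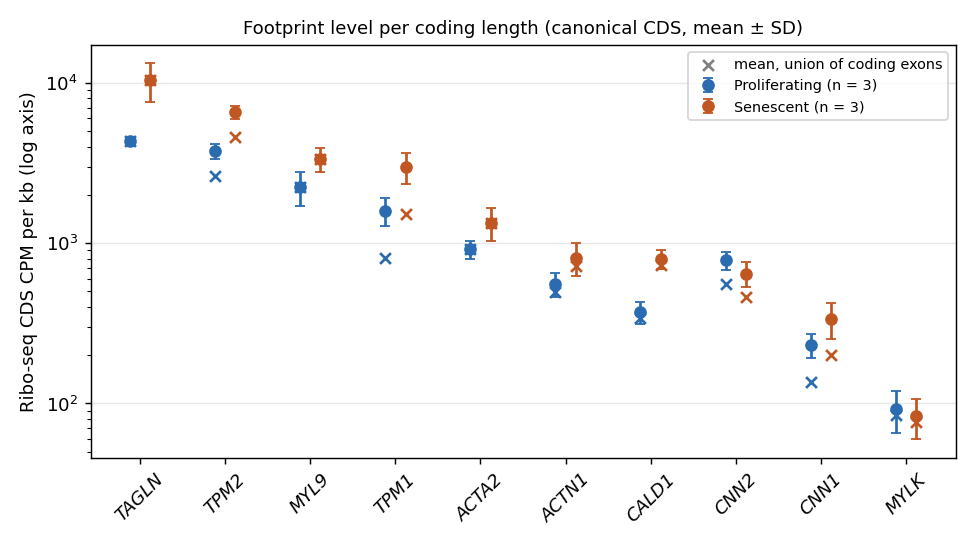
Ribo-seq CDS reads of each gene in CPM per kilobase of canonical coding sequence, on a log axis, as mean ± SD over 3 lysates per state. Crosses give the mean with the union of all annotated coding exons as the length. TAGLN and TPM2 lead in both states, MYLK is last, and the length used matters most for TPM1 and CNN1.

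In RNA-seq the CDS reads per kilobase gave a similar order, with TPM2 ahead of TAGLN in proliferating cells (2217 ± 217 against 2008 ± 198 CPM per kb, ranges overlapping) and TAGLN ahead of TPM2 in senescent cells (3453 ± 17 against 2946 ± 95, without overlap). The part of a gene's mRNA reads that fell in each region depended on the gene more than on the state. MYL9 had 31.6% to 34.7% of its reads in the CDS over the 6 libraries and ACTN1 85.1% to 87.3%. For ACTA2 and TPM2 at most 0.284% and 0.410% of the reads were assigned to a 3′UTR. The 3′UTR of MYLK took 30.2% to 38.1% of its reads in senescent and 30.6% to 30.7% in proliferating cells.

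Several members overlap other genes in the annotation, and whether the counting used strand is not given in the sources used here. ACTA2 overlaps STAMBPL1, FAS and ACTA2-AS1 on the other strand, TAGLN overlaps PCSK7, and MYLK overlaps the antisense genes MYLK-AS1 and MYLK-AS2. Sharing of exact CDS sequence was small apart from CNN2 and MYLK. Windows that differ by a base were not counted, so reads exchanged between close relatives, such as the actins, are not covered. Of 30-base windows, the length of a footprint, ACTA2 shared 1.91% with other genes, mainly ACTC1, and ACTN1 shared 2.65%, mainly with ACTN4. TAGLN, CNN1 and CALD1 shared none.

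Genes typical of smooth muscle were followed in a second list of 11 symbols, of which 7 passed the filter. Not all are restricted to it, since DES is also among the skeletal muscle markers above. As mRNA 5 of the 7 rose and MYH11 fell, where 36.6% of all genes tested rose and 37% fell. The median log2 fold change of the 7 was 0.55. SYNPO2, which encodes the actin-bundling protein synaptopodin 2, went from 13.05, 11.02 and 11.8 CPM to 127, 119 and 135 CPM (log2 fold change 3.42, SE 0.09, adjusted p = 5.79e-18). Its footprints were at 0, 18.7 and 8.68 CPM in proliferating and 83.2, 68.2 and 77.4 CPM in senescent cells (2.80, SE 0.30, adjusted p = 2.74e-12). These rest on few reads, 0, 13 and 15 in proliferating and 128, 4 and 41 in senescent lysates. MYOCD, the coactivator myocardin, rose as mRNA from 24.1, 25.3 and 26.8 CPM to 55.2, 52.9 and 62.5 CPM (1.16, SE 0.09, adjusted p = 1.88e-10). The enteric smooth muscle actin ACTG2 (0.60, SE 0.07), SMTN, which encodes smoothelin (0.55, SE 0.09), and LMOD1, which encodes leiomodin 1 (0.33, SE 0.08), also rose as mRNA.

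MYH11, the smooth muscle myosin heavy chain, was at 32.0, 29.6 and 31.2 CPM as mRNA in proliferating and at 18.5, 15.9 and 20.0 CPM in senescent cells. It fell by 0.78 on the log2 scale (SE 0.10, adjusted p = 6.34e-07). MYH11 footprints overlapped between the states and were not called (-0.03, SE 0.18), and its TE was called higher (0.69, SE 0.21, adjusted p = 0.0493). That call was lost with DESeq2, with the filter of 10 counts in each library and without Pro 2, Pro 3 or Sen 3. DES, the muscle intermediate filament desmin, was not called as mRNA (-0.05, SE 0.09). As RPF 5 of the 7 rose and none fell, by edgeR and at an unadjusted p under 0.05, and DESeq2 called 2 of the 7 in either direction. By edgeR 27.5% of all genes tested as RPF were higher and 26.9% lower. MYOCD and SMTN were among the 5 that rose, but their footprints overlapped between the states. MYOCD had 2, 9 and 18 reads in proliferating and 29, 1 and 13 in senescent lysates (edgeR adjusted p = 0.0995). LMOD1 had 3 reads in Pro 1 and 4 in Sen 2.

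The non-muscle relatives of the 10 genes did not move as one, with 7 of 12 higher and 4 lower as mRNA and a median of 0.14. Over all genes tested as mRNA 36.6% were higher and 37% lower. Beta-actin, ACTB, was at 5193, 5456 and 5662 CPM in proliferating and 5342, 5082 and 5631 CPM in senescent cells and was not called (-0.02, SE 0.08), while gamma-actin, ACTG1, fell by 0.33. Reads of ACTA2 per read of ACTB went from 0.15005 ± 0.015 to 0.209 ± 0.022 in RNA-seq and from 0.229 ± 0.010 to 0.354 ± 0.076 in Ribo-seq (SD, n = 3), without overlap. TAGLN2, the paralogue of TAGLN outside muscle, rose less than TAGLN as mRNA (0.16, SE 0.07, adjusted p = 0.0630), and the ratio of TAGLN to TAGLN2 went from 3.93 ± 0.14 to 6.17 ± 0.14.

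ACTN4, the closest relative of ACTN1, rose with it (0.30, SE 0.08), and the ratio of ACTN1 to ACTN4 overlapped between the states in RNA-seq (2.10 ± 0.06 and 2.05 ± 0.10). In Ribo-seq it was 1.28, 1.56 and 1.61 in proliferating and 1.72, 1.71 and 1.65 in senescent lysates, without overlap. Of the myosin subunits, the light chains MYL12A (0.84, SE 0.08), MYL12B (0.43, SE 0.09) and MYL6 (0.39, SE 0.08) rose as mRNA and the non-muscle heavy chain MYH10 fell by 1.59 (SE 0.08), from 175, 176 and 181 CPM to 59.0, 52.9 and 65.3 CPM. MYH9, the other non-muscle heavy chain, fell by 0.39 (SE 0.10). The tropomyosin TPM4 fell by 0.37 (SE 0.08) where TPM1 and TPM2 rose. In RPF 5 of the 12 rose and MYH10 fell, where 27.5% of all genes tested rose and 26.9% fell. In TE none was called by edgeR, which called 9.37% of all genes there, or by DESeq2. By edgeR 1 of 12 had an unadjusted p under 0.05 in TE.

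Regulators of contraction were called in both directions, 7 higher and 9 lower of 17 as mRNA, with a median of -0.14. Of all genes tested as mRNA 36.6% were higher and 37% lower. CALM2, 1 of the genes for calmodulin, rose as mRNA (0.61, SE 0.08) but not as RPF (-0.07, SE 0.18), and its TE fell by 0.65 (SE 0.19, adjusted p = 0.0366). No regulator was called in TE with DESeq2 or without Pro 2, Pro 3 or Sen 3. RHOC and RHOB, small GTPases that act upstream of the kinases ROCK1 and ROCK2, rose by 0.58 and 0.32 as mRNA (SE 0.07 each). PPP1R12A, the targeting subunit of the phosphatase that opposes MYLK, fell by 0.51 as mRNA (SE 0.08) and by 1.17 as RPF (SE 0.18, adjusted p = 1.49e-07). PPP1R14A, an inhibitor of that phosphatase, fell by 1.27 as mRNA (SE 0.26), and the guanine nucleotide exchange factor ARHGEF2 fell by 0.74 (SE 0.07).

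The kinases ROCK1 and ROCK2, which act on the same phosphatase, differed as mRNA, with ROCK1 higher (0.23, SE 0.07) and ROCK2 lower (-0.21, SE 0.07). Both were called lower as RPF, by 0.56 (SE 0.21) and 0.63 (SE 0.20), but their footprints overlapped between the states. ROCK1 had 1 read in Pro 1 and 2 in Sen 2, and ROCK2 had 2 in each. Among the factors of the CArG box, MYOCD rose as mRNA, as given above, and SRF was called lower as mRNA (-0.14, SE 0.08, adjusted p = 0.104). MKL2, the symbol of MRTFB in these tables, fell by 0.84 as mRNA (SE 0.16), and MKL1, or MRTFA, was not called there (0.02, SE 0.09). As RPF, MKL1 was called higher (0.68, SE 0.30, adjusted p = 0.0604) without overlap, on 1 read in Pro 1 and 2 in Sen 2. SRF was not called as RPF (0.13, SE 0.31) and MKL2 was not tested there. The TE of MKL1 was not called (0.60, SE 0.32, adjusted p = 0.294). In RPF 5 of 15 regulators rose and 6 fell, where 27.5% of all genes tested rose and 26.9% fell. In TE RHOB rose, while ROCK1, CALM2 and PPP1R12A were among those that fell.

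Of 19 components of focal adhesions and stress fibres, 10 rose and 5 fell as mRNA, with a median of 0.12. Among all genes tested as mRNA 36.6% rose and 37% fell. The LIM protein CSRP1 (0.55, SE 0.07), the filamin FLNC (0.49, SE 0.13) and palladin, PALLD (0.47, SE 0.07), had the highest mRNA values among those called. TES, which encodes testin, fell by 1.11 (SE 0.08), TGFB1I1, or Hic-5, by 0.49 (SE 0.07) and FERMT2, a kindlin, by 0.45 (SE 0.07). In RPF 6 rose and 3 fell, where 27.5% of all genes tested rose and 26.9% fell. In TE, where 9.37% of all genes were called, paxillin, PXN, alone was called (0.54, SE 0.19, adjusted p = 0.0971). That call was lost with DESeq2, with the filter of at least 1 read and at 0.05. It was also lost in 4 of the 6 fits with a lysate left out (Pro 2, Pro 3, Sen 1 or Sen 3).

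**Figure D4:**
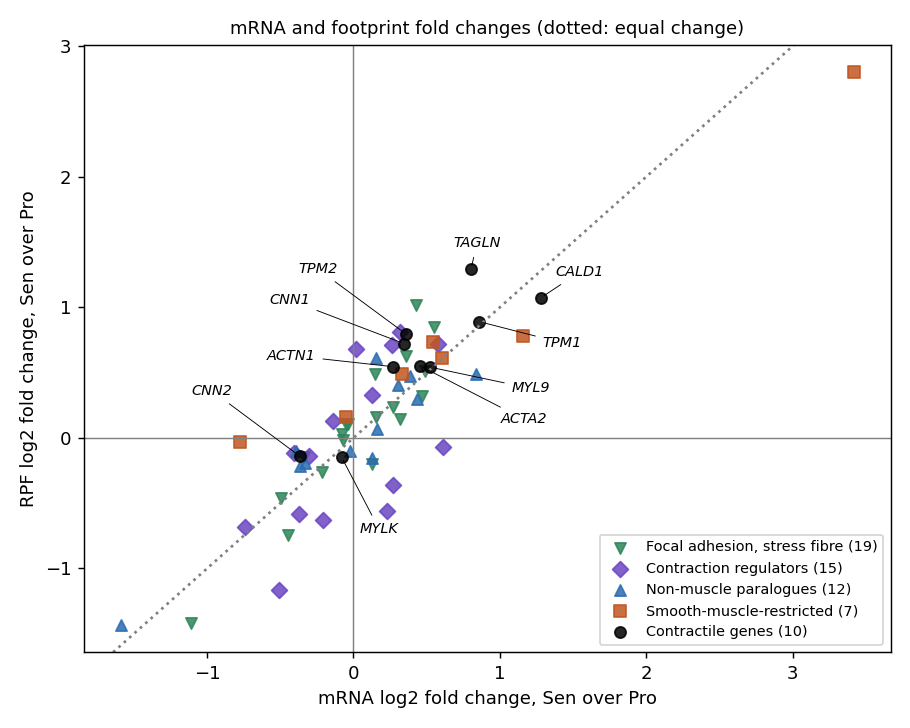
Fold change in RPF against fold change in mRNA, both log2 of senescent over proliferating cells, for the contractile genes (black, named) and 4 related lists, with the number of genes tested in both layers in brackets. The dotted line marks equal change. CALD1, TPM1 and TAGLN lie furthest to the upper right among the named genes, and SYNPO2 is the single square at the top right of the plot.

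Across the 6 RNA-seq libraries, the genes whose log2 CPM followed that of ACTA2 most closely were SLC25A4, CLTA, EXT2, GPR137B and VTI1B, with Pearson correlations of 0.999 to 0.998. This was out of 9418 genes that had 10 CPM or more on average. The 6 libraries form 2 states, so that any gene that differs strongly between the states scores high, and the values are given as a description. Of the other contractile genes TPM2 came nearest to ACTA2 (0.987, with 70 genes above it), followed by TPM1 and TAGLN (both 0.975). CALD1, MYL9 and CNN1 had values of 0.947, 0.946 and 0.943. ACTN1 had 0.741, and MYLK and CNN2 ran against ACTA2, at -0.656 and -0.897.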

How the data were processed

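Ribo-seq and poly(A) RNA-seq tables of 6 lysates (12 libraries) were used, with groups and numbers taken from the labels. The authors deposited, per gene symbol, reads assigned to the 5′UTR, CDS, 3′UTR and other classes; the values as deposited by the authors are expected counts, since some are fractions of a read, and no scaling to depth had been done. The planned tests had assumed plain counts, so values were rounded after regions had been summed. The submitters' processing notes name cutadapt 1.18, Bowtie 1.0.1, SAMtools 1.8 and DESeq2 1.22.2; genome build, annotation, strand rule and handling of reads with several placements are not given in the sources used here. Such choices could shift counts of genes with close relatives.

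RPF were CDS reads and mRNA the sum of 5′UTR, CDS and 3′UTR reads. Libraries were scaled by TMM within each type over the 16451 symbols with a CDS read, filtered with filterByExpr and tested two-sided with edgeR 4.0.16 (R 4.3.3), Benjamini-Hochberg adjusted over all genes tested, at 0.15, the false discovery rate of the published methods. TE was the interaction of library type and state with the lysate as a block, since both libraries of a lysate share its extract, although their deviations from the group means hardly correlated across genes (-0.05 to 0.06). TE per lysate is the log2 ratio of scaled RPF to mRNA after adding 0.5 reads to each. Levels are CPM on effective library sizes. Scripts were tested on simulated counts.

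Lysates were grown separately per the protocol. The members and all lists were chosen with earlier results of these data known. Named besides the 10 members were the 3 highest and 3 lowest called mRNA changes of each list, relatives and regulators that pair with a member, and the 5 genes most like ACTA2; DES, the other marker genes given with values and the genes called in TE were named after their values were seen, and the promoter motifs were also chosen then. Alternatives were RLE factors, library totals, 2 other filters, DESeq2 1.42.0, a threshold of 0.05, leaving out each lysate or both shallow ones, the replicate block, joint TMM, and other read classes. Wilson intervals are at 95%. Plots used matplotlib 3.10.9. The authors' workbook of normalised values was not used here, and single genes of some lists are not reported here.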

Additional observations from a re-analysis of the deposited data

Results flagged for a closer look

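Ribo-seq reads in 3′UTRs entered no comparison above. A gene was flagged if every senescent library exceeded every proliferating one, relative to all 3′UTR Ribo-seq reads of the library. At least 10 reads per senescent library were also required, with no such demand on proliferating ones, so the rule could flag only a rise. It flagged 2 of the contractile genes. The share of all genes that pass it was not computed, so the 3′UTR reads of both are given as a description. MYL9 had 12, 8 and 13 such reads in proliferating and 109, 76 and 65 in senescent lysates, or 1382, 569 and 517 against 1699, 3819 and 1849 per 1000000 3′UTR reads of the library. The lowest senescent value was 1699 per 1000000, from Sen 1, and the highest proliferating one, from the shallow Pro 1, rests on 12 reads. In the shallow Sen 2 these reads were 47.6% of all MYL9 reads in mRNA regions, against 3.77% in Sen 1 and 5.84% in Sen 3. In the shallow Pro 1 they were 19.0%, against 0.893% in Pro 2 and 0.550% in Pro 3.

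TAGLN had 2, 1 and 5 reads of this class in proliferating and 48, 26 and 37 in senescent lysates, and its lowest senescent value was 748 per 1000000 against at most 230 in proliferating cells. CDS footprints of both genes also rose. The 3′UTR share of all mRNA-region reads differed between the Ribo-seq libraries, from 1.40% in Pro 3 to 14.8% in Sen 2, and the part of this in the result was not tested. No group had enough samples for a test of single outlying libraries.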

How the results depend on the processing

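Over 14 alternatives each, none of the 9 mRNA calls was lost, and a second gene, MYLK, was called lower (2 lower in all) with library totals, without both shallow lysates and with CDS reads alone. In RPF 8 members were called higher under every setting but that without Sen 3 (6 to 8 with a lysate left out); 2 were called lower with library totals and with a strict filter (10 counts or more in each library), and 0 to 1 with a lysate left out (1 without Pro 1). ACTA2 and ACTN1 in RPF lost their call without Sen 3, and MYLK in RPF ran from -0.28 to 0.014 with a lysate left out, turning without Pro 3. In TE 1 member was called higher with RLE factors and 2 with library totals, without both shallow lysates, with no replicate block and with joint TMM; 0 to 2 with a lysate left out (2 without Sen 2). TE signs turned for ACTA2 (-0.019 with the strict filter, -0.074 to 0.25 with a lysate left out), MYL9 (-0.018 with RLE, -0.016 with totals, -0.10 with the strict filter, -0.051 without both shallow lysates, -0.20 to 0.23 with a lysate left out), MYLK (0.035 with joint TMM, 0.024 with CDS reads alone, -0.15 to 0.11 with a lysate left out) and TPM1 (-0.082 with the strict filter, -0.13 to 0.20 with a lysate left out).

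Counts of genes called in the other lists moved as follows; the cause was not tested. Smooth muscle genes in RPF numbered 3 with totals, 1 with the strict filter, 2 with DESeq2 and 3 with the replicate block. With a lysate left out they numbered 3 to 5 (5 as reported). In TE they numbered 0 with the strict filter, 0 with DESeq2 and 0 to 1 with a lysate left out. Non-muscle paralogues numbered 3 to 8 in RPF with a lysate left out (6 as reported), and in TE 1 with RLE, totals, no replicate block or joint TMM, 2 with the strict filter, 3 without both shallow lysates and 0 to 3 with a lysate left out (0 as reported). Regulators in RPF numbered 4 with the strict filter, 5 with DESeq2, 6 with the replicate block and 6 to 11 with a lysate left out (11 as reported), and in TE 3 with genes of at least 1 read, 2 with the strict filter, 0 with DESeq2, 3 with CDS reads alone, 3 at 0.05 and 0 to 6 with a lysate left out (5 as reported). Focal adhesion genes in TE numbered 0 with at least 1 read, with DESeq2 and at 0.05, 4 without both shallow lysates, 2 with no replicate block or joint TMM and 0 to 2 with a lysate left out (1 as reported).

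Whether replicate numbers pair the states is not stated. Deviations of same-numbered lysates correlated from -0.10 to 0.12 in mRNA and 0.01 to 0.03 in RPF. This cannot decide the question, since the 2 libraries of a lysate, which share an extract, had only -0.05 to 0.06. The replicate block left 8 members higher in both layers. The 2 shallow Ribo-seq libraries and 3 lysates per state limit the RPF and TE results.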
